A study of Danio rerio with 6 samples.

Results

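Splicing and RNA-binding factors were followed in wild-type zebrafish eye tissue with and without its retinal pigment epithelium (RPE, a sheet of melanin-bearing cells that nourishes photoreceptors). Members were the genes whose symbol in the array's gene table begins with srsf, hnrnp, snrp, sf3, prpf, u2af, ddx or celf, or with rbm or lsm and a digit, together with pspc1, nono and sfpq. The rule found 136 of the 8793 genes with a probe set of their own, and each was read from its brightest probe set. The name rule used no measured value. It also takes in ddx helicases that act outside splicing. All fish were of the AB strain, wild-type, at 52 hours post fertilization. There were 3 pools of dissected retina and 3 pools of retina with RPE attached, each of 10 tissues and called a biological replicate in the labels. The second group holds the retina as well, so the comparison is of a mixture with 1 of its parts. In such bulk RNA, fewer cells of a type and less RNA per cell cannot be told apart.

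The arrays had medians of 68.7 to 69.6 in retina and 73.2 to 74.5 with RPE. Values are intensities on a linear scale, and changes are log2 differences, retina with RPE minus retina, with their standard error (SE). A gene was called at an adjusted p under 0.05 in limma, with Benjamini-Hochberg adjustment over 15502 probe sets. The smallest p that permuting 3 and 3 pools exactly allows is 0.1. Calls therefore depend on limma's pooled variance. Markers of RPE and melanin were higher in the pools with RPE for 8 of 8 measured genes, and their summed intensity was 559.4 to 636.5 in retina and 2817 to 3912 with RPE. Other lists differed to varying degrees, where 19.4% of all genes were called higher and 17% lower. Genes of mesenchyme and cartilage were higher for 14 of 17 (sum 756 to 804 against 1247 to 1768), of neural crest and other pigment cells for 7 of 8 (1317 to 1632 against 2847 to 3079) and of skeletal muscle for 8 of 17 (704 to 766 against 975 to 1136). Vessel genes were higher for 4 of 5 (246 to 277 against 392.2 to 424.4), leukocyte genes for 6 of 12 (605 to 731 against 879 to 928), skin and cornea genes for 6 of 20 with 2 lower (650.2 to 698 against 1108 to 1204), erythrocyte genes for 3 of 10 with 1 lower (3391 to 4399 against 4224 to 6162) and lens genes for 1 of 5 (230.0 to 244 against 261 to 298). The erythrocyte sums overlapped between the groups, and the share of lens genes called higher, 20%, was near that of all genes. Genes of retinal neurons and progenitors were lower for 8 of 25 and higher for 3 (44710 to 53530 against 39980 to 42880). Genes that can respond to dissection were higher for 5 of 16 and lower for 6 (4163 to 4878 against 3804 to 3915). No listed gene has a detection call here, so no marker can be said to be at 0. The part of these other cells in the changes below was not tested.

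Pre-mRNA splicing is carried out by small nuclear ribonucleoproteins (snRNPs), each an RNA with a ring of Sm or Sm-like proteins and its own specific proteins. SR proteins bind exons and help recruit these particles, whereas hnRNP proteins coat the transcript and often oppose them. DEAD-box helicases remodel RNA and RNA-protein complexes in splicing, export, ribosome assembly and translation. Neural tissue is known for extensive alternative splicing, and mutations of human PRPF genes cause a form of retinitis pigmentosa.

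Of the 136 members, 35 fell and 20 rose when RPE was attached, that is 25.7% and 14.7%, while 17% of all genes fell and 19.4% rose. In all 40.4% of members and 36.4% of all genes were called. Falls of 1.5-fold or more were called in 14 members and rises of that size in 3, beside 6.12% and 3.89% of all genes. The groups of arrays did not overlap in 69 members, or 50.7%, the same share as in all genes. The median log2 change was -0.05 in members and 0.04 in all genes. The sign of the members' median turned after cyclic loess (0.029) and quantile normalization (0.036). It then lay slightly above the median of all genes (0.017 and 0.022).

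The members were bright as a set, and the change followed brightness in all genes. In the brightest 25% of genes, which held 92 of the 136 members, 31.5% of members fell and 8.7% rose, and of all its genes 28.3% fell and 8.83% rose. In that range the members' shares lay near the background. In the next brightest 25%, 19.2% of 26 members fell and 23.1% rose, beside 25.8% and 15.9% of all genes there. Among genes read from a probe set marked S in its identifier the shares that fell were 26.6% of 79 members and 13.2% of all genes, and for those marked A 24.6% of 57 members and 20.7% of all genes. After quantile normalization 23 members were called lower and 22 higher, and after cyclic loess 25 and 21, so that falls and rises of members came closer in number. The shares that fell were then 16.9% of members and 14.4% of all genes after quantile normalization, and 18.4% and 14.8% after cyclic loess. Of the 35 falls, 26 kept the call whichever single array was left out, and 23 kept it both then and under cyclic loess, quantile normalization and centring on ribosomal protein genes. Of the 20 rises 8 did so. Without retina with RPE replicate 2 or 3, rises numbered 10 in each case, or 7.35% of members, beside 13.1% and 12.4% of all genes. Where the loss of a call is given below, the bracketed number after an array or scaling is the adjusted p then found. Counts of role groups and lists below stand beside 17% of all genes lower and 19.4% higher. In the brightest 25% of genes those shares were 28.3% and 8.83%.

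**Figure D1:**
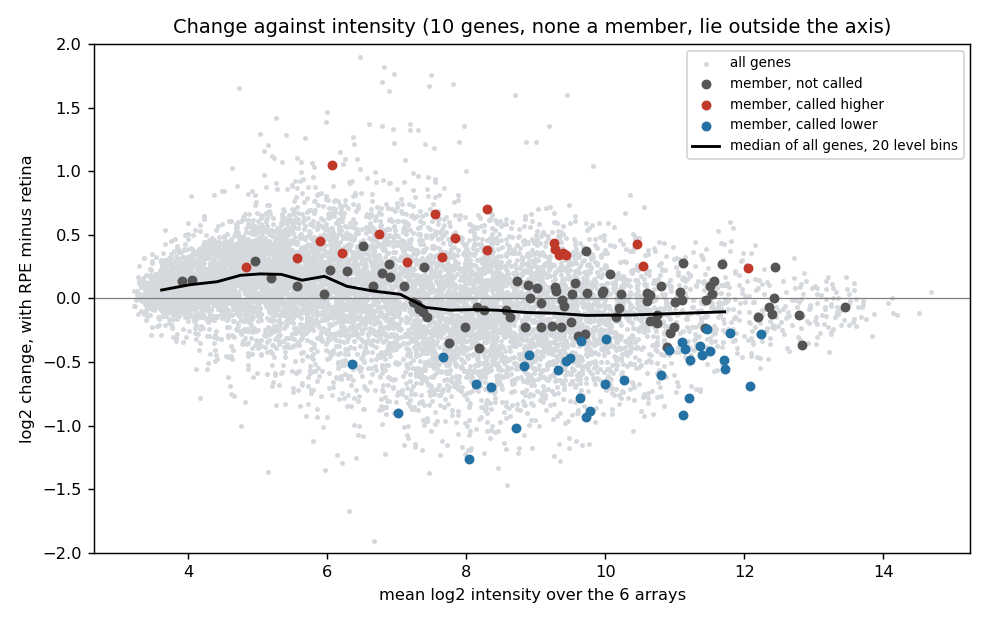
Log2 change (retina with RPE minus retina) against mean log2 intensity over the 6 arrays for all 8793 genes in grey and the 136 members in colour. The black line is the median of all genes in 20 bins of intensity, and most members called lower lie at high intensity, where that line is below 0.

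Different probe sets of a member often did not give the same answer. Of 33 members with several probe sets, 12 were called by the brightest. In 1 of these, hnrnpub, another probe set was called the same way (8.33%, beside 23.6% over the whole array). In 4 of the 12, or 33.3%, a dimmer probe set was called the opposite way, beside 17.6% of the 643 such genes on the whole array. These were hnrnpub, srsf6a, lsm14aa and ddx61. The matrix attachment factor gene hnrnpub changed by -0.65 and -0.24 by the probe sets called lower and by 0.80 by the remaining one. For srsf6a the probe sets gave -0.41, 0.25, which was not called, and 0.69. The values of lsm14aa were -0.52, 0.04, not called, and 0.65, and those of ddx61 -0.42, -0.05, not called, and 0.36. Direction therefore depended on the probe set in these genes. Every other probe set had the same sign in only 5 of the 12. In ddx31, ddx3xb and lsm12b the brightest probe set was called at 0.45, -0.27 and -0.33. Their dimmer ones, at -0.12, 0.02 and 0.13, had the opposite sign and were not called. The reverse was seen too, in genes singled out after their values were seen: the brightest probe set of srsf1b, at -0.03, was not called while the other, at -0.74, was called lower, and the dimmest of 4 probe sets of hnrnpa0b was called higher at 1.01. The other 103 members have 1 probe set each and no such check.

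**Figure D2:**
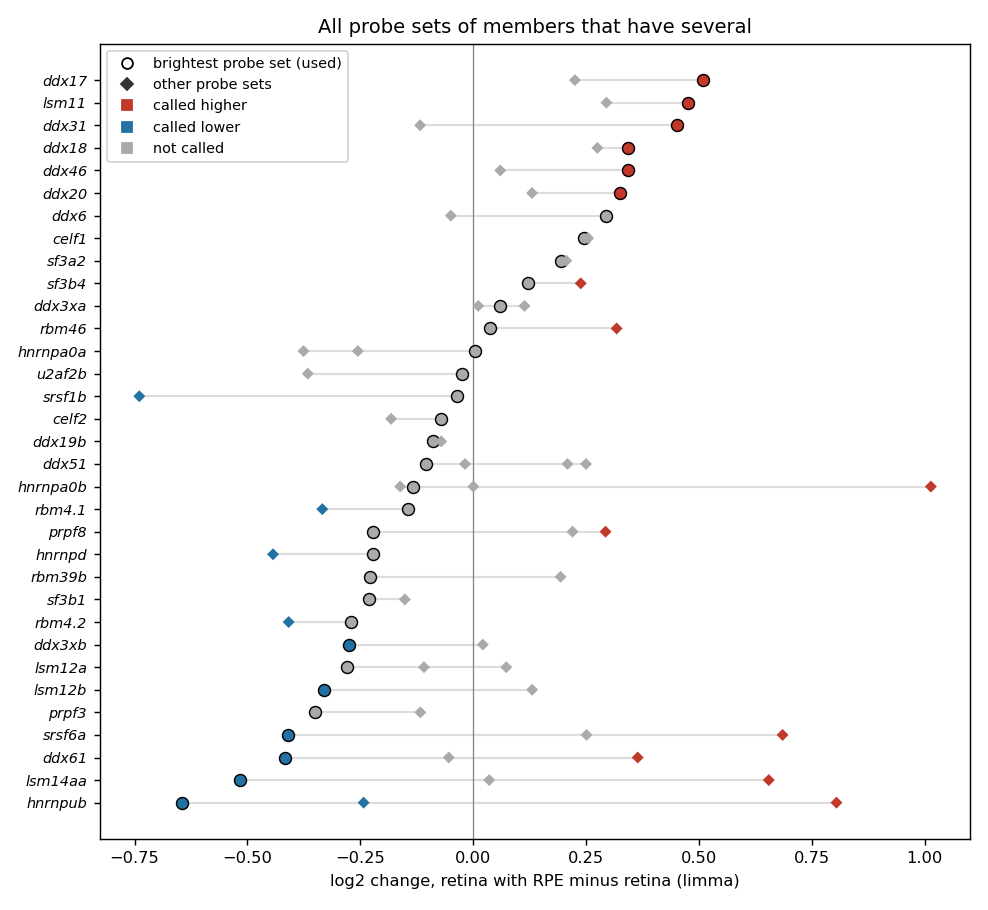
Log2 change (retina with RPE minus retina) of every probe set of the 33 members that have several, 1 row per gene. Outlined circles are the brightest probe sets, diamonds the others, and colours give the call; in hnrnpub, srsf6a, lsm14aa and ddx61 red and blue stand in the same row.

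The largest change of any member was in the paraspeckle proteins, which share RNA-binding motifs and a coiled-coil and pair with one another in nuclear bodies built on a long noncoding RNA in mammals. The intensity of pspc1, paraspeckle component 1, was 443, 383 and 401 in the retina pools and 169.9, 185 and 156 in the pools with RPE. Every pool with RPE lay below every retina pool, and pspc1 was 2.402-fold lower (95% interval 2.06 to 2.795, adjusted p = 6.9e-05). Its partner gene sfpq, which encodes a splicing factor that neurons need for long transcripts, read 6606, 5398 and 4658 in the retina pools and 3384, 3503 and 3356 in the pools with RPE. The groups did not overlap, the retina pools were the more scattered, and the fall was 1.61-fold (95% interval 1.33 to 1.94, adjusted p = 0.00271). The third gene of the family, nono, read 1724, 1735 and 1321 in the retina pools and 1469, 1732 and 1629.9 in the pools with RPE, so that the groups overlapped, and it changed by 0.02 ± 0.121 (SE, adjusted p = 0.897). Both falls kept their call without any single array and under each scaling, with adjusted p up to 8.7e-04 for pspc1 and 0.0162 for sfpq. Each of the 3 genes has a single probe set, marked A for pspc1 and sfpq and S for nono.

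Of 13 SR protein genes, 6 fell, 0 rose and 7 were not called, and the median log2 change was -0.24, or -0.10 after cyclic loess and -0.12 after quantile normalization, where 4 and 3 fell. The gene srsf5b stood apart. Its values were 3076, 3283 and 2794 in the retina pools and 1800.4, 1539 and 1513 in the pools with RPE, without overlap, and it was 1.89-fold lower (95% interval 1.61 to 2.21, adjusted p = 3.2e-04). The next falls were smaller. The gene srsf4 fell from 4123 ± 450.2 to 2799.6 ± 214 (SD, n = 3; adjusted p = 0.0037, limma) and srsf2b from 2819 ± 297 to 2015 ± 112 (adjusted p = 0.00558). SRSF2 is the SR protein known as SC35, a marker of nuclear speckles. By its brightest probe set srsf6a changed by -0.41 ± 0.0829 (SE), a call that quantile normalization ended (adjusted p = 0.0517). The genes srsf1a, srsf11 and srsf7a, singled out after their values were seen, lay between -0.01 and 0.11 and were not called.

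Of 19 hnRNP genes, 6 fell, 0 rose and 13 were not called, with a median of -0.13, or -0.01 after cyclic loess and -0.02 after quantile normalization. Falls numbered 3 without retina with RPE replicate 2 or 3 and under each of these scalings. The 3 largest were all in the hnRNP U family, nuclear scaffold proteins that bind RNA and chromatin. The gene hnrnpul1 read 1171, 1349 and 1346 in the retina pools and 820.1, 790.0 and 814 in the pools with RPE, and was 1.59-fold lower (95% interval 1.39 to 1.83, adjusted p = 7.2e-04). All its pools with RPE lay below the retina pools. The gene hnrnpua changed by -0.56 ± 0.09599 (adjusted p = 0.00237) and hnrnpub by -0.65 ± 0.113 (adjusted p = 0.00266), the latter with the opposed probe set given above. The brightest probe set of the group, that of hnrnpa0l, read 12561, 10822 and 10931 in the retina pools and 10915, 11161 and 10556 in the pools with RPE, with overlapping groups and a change of -0.07 ± 0.0904 (SE).

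**Figure D3:**
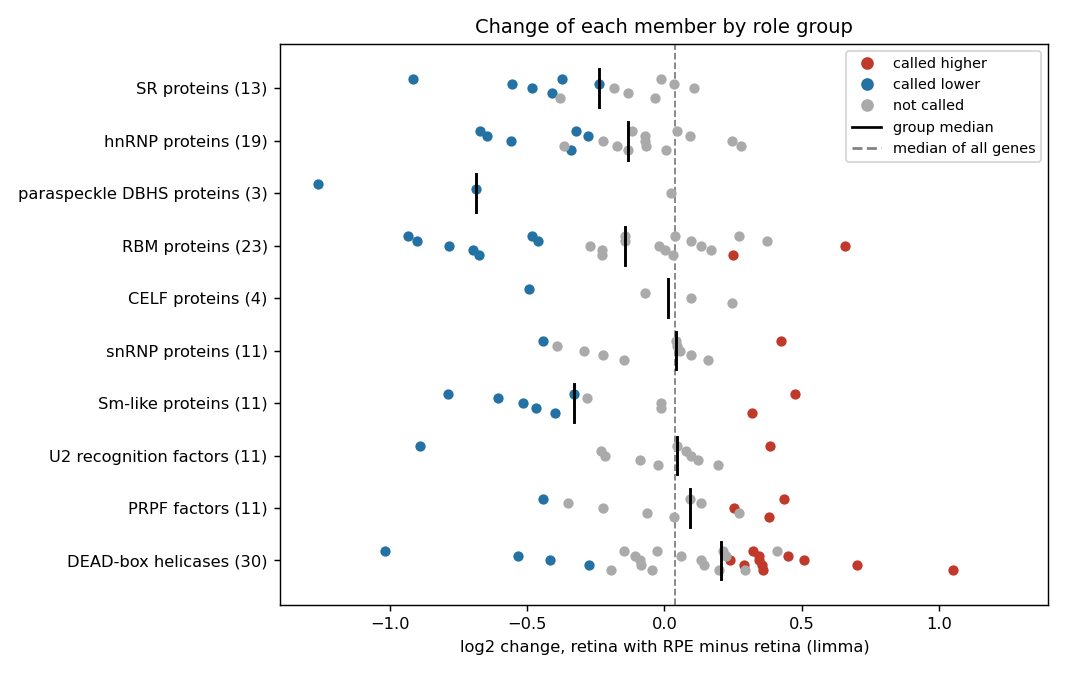
Log2 change (retina with RPE minus retina) of all 136 members, 1 point per gene, in 10 role groups with the number of genes in brackets. Black bars are group medians and the dashed line is the median of all genes (0.04); SR and hnRNP genes hold no red point, and the DEAD-box group reaches farthest to the right.

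Among 23 RBM genes, a set named only for its RNA-binding motif, 7 fell, 2 rose and 14 were not called (median -0.14). Those shares were 30.4% lower and 8.7% higher, beside 17% and 19.4% of all genes. The gene rbm17, whose product SPF45 takes part in 3' splice site recognition, read 1229, 1223 and 1060.5 in the retina pools and 661, 639 and 539.6 in the pools with RPE and was 1.91-fold lower (95% interval 1.62 to 2.25, adjusted p = 3.4e-04). For rbm26 the values were 177, 190.2 and 164 in the retina pools and 91.5, 104 and 88.97 in the pools with RPE, a fall of 1.87-fold (95% interval 1.61 to 2.17, adjusted p = 2.8e-04). In mammals the product of RBM26 belongs to a nuclear RNA decay pathway, as does that of RBM7, a subunit of the exosome targeting complex NEXT. The gene rbm7 fell as well, from 1052 ± 111 to 609 ± 54.7 (SD, n = 3; adjusted p = 8.5e-04, limma), and rbm45 from 422 ± 94.6 to 256 ± 21.3 (adjusted p = 0.0061). The groups of arrays did not overlap in these 4 genes. The exon junction complex gene rbm8a, the brightest of the set, changed by -0.48 ± 0.1003 (SE, adjusted p = 0.00581). Of the rises, rbm25b went from 149.8 ± 9.61 to 237 ± 14.4, 1.58-fold (95% interval 1.37 to 1.82, adjusted p = 8.4e-04). The second, rbm33b, was dim, at 26.03 in retina, and rose by 0.25 ± 0.0848, a call lost under cyclic loess, quantile normalization and ribosomal centring (adjusted p up to 0.32) and without any 1 of the 6 arrays (up to 0.13).

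Of 4 CELF genes, regulators of splicing and mRNA decay that are well known in neurons and muscle, 1 fell. It was celf3a, whose orthologue in mammals is expressed mainly in the nervous system, with 1019, 737 and 729 in the retina pools and 625, 568 and 552 in the pools with RPE. The groups did not overlap, and the change was -0.49 ± 0.132 (SE, adjusted p = 0.0173). The call was lost without retina with RPE replicate 2 (0.0632) or 3 (0.069) and under cyclic loess (adjusted p = 0.0589) and quantile normalization (0.0607). The brighter probe set of celf2 read 1219, 1109 and 1292 in the retina pools and 1083, 1097 and 1265 in the pools with RPE and was not called (adjusted p = 0.598).

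Of 11 genes for snRNP proteins 1 rose, 1 fell and 9 were not called. Among the 8 genes of the Sm ring, which is common to the U1, U2, U4 and U5 particles, only snrpf fell. Its values were 3081, 3086 and 3179 in the retina pools and 2224, 2418 and 2245 in the pools with RPE, without overlap, and the change was -0.44 ± 0.0817 (SE, adjusted p = 0.0034). The other 7 lay between -0.39 for snrpd3 and 0.16 for snrpd2. Without retina replicate 2, 3 of the 8 fell. The gene snrpc, a protein of the U1 particle that recognizes the 5' splice site, read 1179, 1129 and 1319.9 in the retina pools and 1584, 1519 and 1773 in the pools with RPE and rose 1.34-fold (95% interval 1.16 to 1.56, adjusted p = 0.00905). Its groups did not overlap. The brightest gene of the set, snrpb, changed by 0.10 ± 0.1097 and was not called (adjusted p = 0.512).

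Of the Sm-like genes, 6 of 11 fell, 2 rose and 3 were not called, with a median of -0.33. That is 54.5% lower and 18.2% higher, beside 17% and 19.4% of all genes. The median was -0.19 after cyclic loess and -0.17 after quantile normalization, where 4 and 3 fell and 1 rose in each. Rises also numbered 1 when retina replicate 1 or 3 was left out, and likewise for replicate 2 or 3 of the group with RPE. With the dimmest probe set of each gene the median was -0.01, and 4 fell and 2 rose. Of the 6 falls, lsm14aa also has a dimmer probe set called higher. The dimmer probe set of lsm12b had the opposite sign and was not called. Sm-like proteins form heptamers that share most subunits, a nuclear one with Lsm8 that binds U6 snRNA and a cytoplasmic one with Lsm1 that acts in mRNA decay. Of the 5 measured genes of these heptamers, lsm6, lsm7 and lsm8 fell, and lsm1 and lsm4 were not called. The gene lsm6 read 3340.2, 2749.5 and 3209 in the retina pools and 1789, 1804 and 1777 in the pools with RPE and was 1.73-fold lower (95% interval 1.49 to 1.998, adjusted p = 4.7e-04), and lsm7 read 2080.2, 2163 and 2360.1 in the retina pools and 1522, 1314 and 1510.5 in the pools with RPE and was 1.52-fold lower (95% interval 1.31 to 1.76, adjusted p = 0.00162). In both genes all pools with RPE lay below all retina pools, and those of lsm6 lay within 1777 to 1804. The U6-specific lsm8 changed by -0.47 ± 0.108 (SE, adjusted p = 0.00939), which quantile normalization brought to an adjusted p of 0.0502, and the decay-specific lsm1 by -0.01 ± 0.0924 (adjusted p = 0.92). The values of lsm4 overlapped, with a change of -0.01 ± 0.111 (adjusted p = 0.944). The grouping into Sm and Sm-like rings, and the choice of snrpd2, snrpd3, lsm8, lsm1 and lsm4, came after their values were seen. Not counted with the Lsm1 and Lsm8 heptamers was lsm11, a subunit of the U7 particle that processes histone mRNAs. It rose from 194 ± 7.498 to 270.0 ± 7.74 (SD, n = 3), 1.39-fold (95% interval 1.23 to 1.58, adjusted p = 0.00239). Its dimmer probe set, at 0.30, was not called (0.118). The dim lsm14b rose by 0.32 ± 0.103 (adjusted p = 0.0364), a call lost without retina replicate 1 (0.11) or 3 (0.0611), or without retina with RPE replicate 2 (0.11) or 3 (0.121), under cyclic loess (0.201) and under quantile normalization (0.171).

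**Figure D4:**
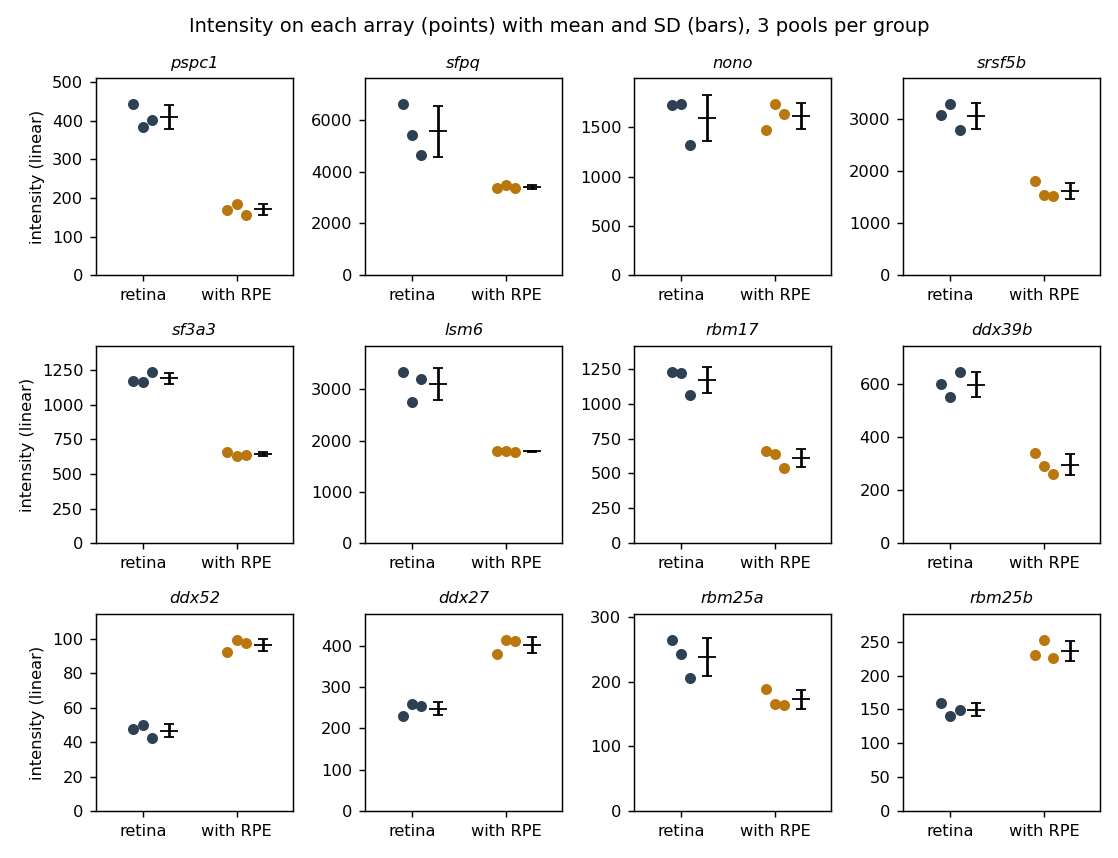
Linear intensity on each of the 6 arrays for 12 members, with the mean and SD of the 3 pools of a group beside the points and every axis starting at 0. The groups overlap for nono and are apart for the other 11 genes.

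Of 11 genes for U2 recognition, comprising the SF3A and SF3B complexes of the U2 particle and the U2AF factors that find the 3' splice site, 1 fell, 1 rose and 9 were not called. The gene that fell was sf3a3, with 1168, 1166 and 1237 in the retina pools and 659.8, 629.9 and 639 in the pools with RPE. Its groups lay far apart, it was 1.85-fold lower (95% interval 1.63 to 2.097, adjusted p = 1.3e-04), and it kept its call under each scaling and without any single array (adjusted p up to 0.00188). Its partners in the same trimer were not called, with sf3a1 at 0.08 ± 0.143 and sf3a2 at 0.20 ± 0.0974 (SE), both named after their values were seen. The gene sf3b5 rose by 0.39 ± 0.114 (adjusted p = 0.0268) and lost the call without retina replicate 2 (0.0627), or without retina with RPE replicate 1 (0.0756), 2 (0.0599) or 3 (0.0876). The brightest, sf3b1, changed by -0.23 ± 0.0864 (adjusted p = 0.0627). The set held 2 rises under cyclic loess and 3 under quantile normalization.

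Of 11 PRPF genes, 3 rose, 1 fell and 7 were not called. That is 27.3% higher and 9.09% lower, beside 19.4% and 17% of all genes. Rises numbered 1 without retina with RPE replicate 1 or 3, and falls 3 without retina replicate 2. The gene prpf39, a U1-associated factor in yeast, rose from 530.3 ± 60.1 to 717 ± 68.8 (SD, n = 3; adjusted p = 0.0144, limma), and lost the call without retina with RPE replicate 1 (0.0585) or 3 (0.0544). The U4/U6.U5 bridging factor gene prpf6 rose by 0.26 ± 0.0871 (SE, adjusted p = 0.0454), lost after ribosomal centring (0.075) and without retina replicate 2 (0.117) or 3 (0.0961), or without retina with RPE replicate 1 (0.126), 2 (0.0881) or 3 (0.1). Of the members whose human orthologues are mutated in retinitis pigmentosa, prpf3, prpf4, prpf6, prpf8 and prpf31, only prpf6 was called, a comparison made after the values were seen. The core factor prpf8 changed by -0.22 ± 0.115 (adjusted p = 0.159), and 1 of its dimmer probe sets was called higher at 0.29. The brightest of the set, prpf19, read 2756, 2785 and 3448 in the retina pools and 3563, 3527 and 3696 in the pools with RPE and was not called (adjusted p = 0.0667).

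The DEAD-box helicases held 11 of the 20 rises: 11 of 30 rose, 4 fell and 15 were not called, with a median of 0.21. Those shares were 36.7% higher and 13.3% lower, beside 19.4% and 17% of all genes. Rises numbered 5 of 30 when either replicate 2 or replicate 3 with RPE was left out, where 13.1% and 12.4% of all genes rose. Falls numbered 2 without retina replicate 1 or any of the pools with RPE, and under cyclic loess and quantile normalization. Grouped by known role after their values were seen, 6 of 11 nucleolar helicases of ribosome assembly rose and none fell (median 0.34). That is 54.5% higher, beside 19.4% of all genes. Their median mean log2 was 7.29. Under the other scalings and with any single array left out, 4 or 5 rose. The gene ddx52 read 47.5, 50.2 and 42.5 in the retina pools and 92.7, 99.6 and 97.7 in the pools with RPE and rose 2.07-fold (95% interval 1.798 to 2.39, adjusted p = 1.1e-04), and ddx27 read 229, 258 and 254 in the retina pools and 379, 414 and 412 in the pools with RPE and rose 1.63-fold (95% interval 1.42 to 1.87, adjusted p = 5.4e-04). In both, every pool with RPE lay above every retina pool. The yeast counterparts of these genes, ROK1 and DRS1, are needed for the small and the large ribosomal subunit. The dim ddx31 changed by 0.45 ± 0.0979 (SE, adjusted p = 0.00702) by 1 probe set and by -0.12, not called, by the other. The other rises of this kind were ddx21 (0.36), ddx54 (0.36) and ddx18 (0.34), and each lost its call without at least 1 array. For ddx21 the call was lost without retina with RPE replicate 2 (0.0621). For ddx54 it was lost without retina replicate 2 (0.0789) or 3 (0.117), or without retina with RPE replicate 2 (0.152) or 3 (0.105). For ddx18 it was lost without retina replicate 1 (0.0551), or without retina with RPE replicate 1 (0.0597) or 3 (0.0644), and with its dimmer probe set (0.0509). The call of ddx54 was also lost under all 3 scalings (adjusted p up to 0.126).

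Helicases of splicing and mRNA export went both ways, with 3 of 10 higher and 2 lower. When either replicate 2 or replicate 3 with RPE was left out, 1 was higher and 1 lower. The export and spliceosome helicase gene ddx39b read 599, 550.2 and 646 in the retina pools and 339, 289.7 and 261 in the pools with RPE and was 2.03-fold lower (95% interval 1.702 to 2.41, adjusted p = 3.2e-04). Its relative ddx39aa, the brightest helicase, read 5126, 4685 and 5062 in the retina pools and 4681, 4531 and 4234 in the pools with RPE and was not called (adjusted p = 0.215). The U2-associated helicase gene ddx46 rose from 575 ± 21.8 to 729 ± 18.2 (SD, n = 3; adjusted p = 0.0101, limma), while the dimmer of its probe sets, at 0.06, missed the threshold. The gene ddx42 fell by 0.53 on the log2 scale (adjusted p = 0.028) and ddx17 rose by 0.51 ± 0.143 (adjusted p = 0.0217). The call of ddx42 was lost without retina replicate 1 (0.0525), or without retina with RPE replicate 1 (0.053), 2 (0.0914) or 3 (0.0937) and under cyclic loess (0.0744) and quantile normalization (0.0695). That of ddx17 was lost without retina replicate 3 (0.0613), or without retina with RPE replicate 2 (0.0771) or 3 (0.0909), and its dimmer probe set, at 0.23, was not called (0.306).

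Zebrafish carry duplicates of many of these genes, and 18 pairs of related symbols were set side by side, a list drawn up from the symbols after the files were seen. In 4 pairs both genes fell, in 2 the genes were called in opposite directions, in 5 only 1 was called and in 7 neither. The pairs that fell were srsf2a with srsf2b, srsf5a with srsf5b, hnrnpua with hnrnpub and lsm14aa with lsm14ab. Of these genes hnrnpub and lsm14aa each also have a dimmer probe set called higher. The opposed pairs were rbm25a with rbm25b and prpf4ba with prpf4bb. The splicing regulator gene rbm25a read 265, 243 and 206 in the retina pools and 189, 165 and 164 in the pools with RPE, and rbm25b read 159.8, 141 and 149 in the retina pools and 231, 253 and 226 in the pools with RPE. The first was lower and the second higher in every pool with RPE, and the log2 ratio of rbm25a over rbm25b fell by 1.12. The adjusted p of rbm25a rose to between 0.0497 and 0.05 without retina with RPE replicate 2 or 3, and stayed just under the threshold. The kinase gene prpf4ba read 532, 585 and 558 in the retina pools and 394, 453 and 386 in the pools with RPE and prpf4bb 274, 261 and 293 in the retina pools and 350.0, 385 and 345 in the pools with RPE, with a fall in their log2 ratio by 0.83. Between srsf5a and srsf5b, which both fell, the difference was 0.54, and srsf5a, at -0.37, lost its call without retina replicate 1 (0.0542) or 2 (0.0517), or without retina with RPE replicate 2 (0.0624) or 3 (0.0822) and under all 3 scalings (adjusted p up to 0.11). The weak fall of srsf2a, at -0.24, was lost without retina replicate 2 (0.106) or 3 (0.0931), or without retina with RPE replicate 1 (0.104), 2 (0.0892) or 3 (0.119) and under all 3 scalings (up to 0.379). Of the 18 ratios 8 did not overlap between the groups, each with an exact permutation p of 0.1, the smallest possible (0.225 after Benjamini-Hochberg adjustment over the pairs). Among single genes 50.7% did not overlap, and no such share was taken for ratios of other gene pairs. Whether a probe set also detects the related copy is not known from the files.

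**Figure D5:**
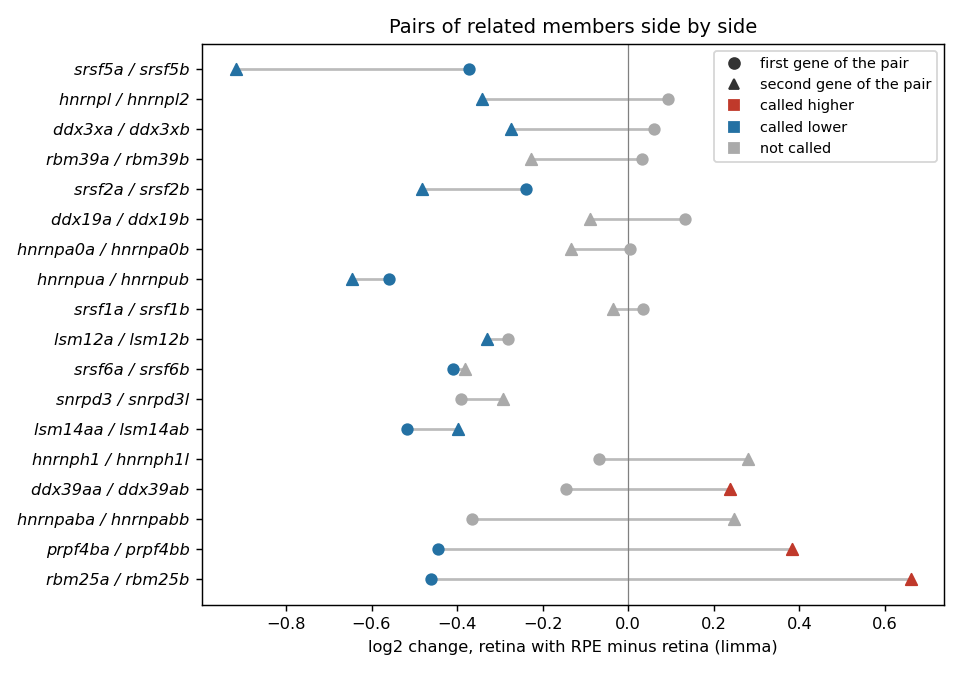
Log2 change (retina with RPE minus retina) of both genes of 18 pairs of related members, circles for the first gene and triangles for the second, coloured by call. The genes of the lowest 2 rows, rbm25a with rbm25b and prpf4ba with prpf4bb, lie on opposite sides of 0.

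The other genes of the pathway, listed by role outside the name rule, were tested in the same fit. Of 138 measured, 37 fell and 20 rose (26.8% and 14.5%, with 17% and 19.4% of all genes). After cyclic loess or quantile normalization 19 of the 138 fell, a share slightly below that of all genes, which was 14.8% and 14.4%. After ribosomal centring 22 fell, beside 13% of all genes. Falls numbered 18 without retina with RPE replicate 2 or 3 and 20 without replicate 1. Without replicates 2, 3 and 1 of that group rises numbered 13, 11 and 11. Of all genes 12.1%, 11.5% and 13% then fell, and 13.1%, 12.4% and 14.7% rose. Among 21 tissue and neuronal regulators 7 fell and 2 rose (33.3% and 9.52%). The gene ptbp2b, whose mammalian orthologue governs neuronal splicing, read 1081, 877 and 901 in the retina pools and 431, 389.9 and 383 in the pools with RPE and was 2.37-fold lower (95% interval 2.02 to 2.78, adjusted p = 9.3e-05), without overlap. The neuronal regulator gene nova2 changed by -0.51 ± 0.118 (adjusted p = 0.00963), although its dimmest probe set, at 0.06, was not called. A further fall was elavl1b, at -0.53 (adjusted p = 0.0494). The 2 rises of the list were ptbp3, at 0.37 (adjusted p = 0.0433), and rbfox1l, at 0.30 (0.0192). All of elavl1b, ptbp3 and rbfox1l lost their calls under cyclic loess (0.125, 0.09 and 0.0756) and quantile normalization (0.13, 0.0783 and 0.0609). Among 12 genes of early spliceosome assembly 5 fell and 2 rose, with log2 changes from -0.87 to 0.36. The largest called fall was that of fubp1, although its dimmest probe set, at -0.09, was not called (0.513). The branch point factor gene sf1 was lower by 1.68-fold (95% interval 1.32 to 2.13). Of 31 genes of the later spliceosome 7 fell and 6 rose. Here smu1a was 1.61-fold lower and the U4 protein gene snu13a 1.502-fold higher (adjusted p = 0.00149 and 0.00152).

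Of 7 splicing kinase and SR import genes, 2 fell and 2 rose. The SR protein kinase gene srpk1a fell from 604 ± 108 to 363 ± 28.9 (SD, n = 3; adjusted p = 0.00298, limma), whereas the kinase gene clk4a rose from 699 ± 123 to 1044 ± 93.4 (adjusted p = 0.00842). Of 13 genes for snRNP assembly only phax, the export adaptor of U snRNAs, fell, with 713, 586 and 655 in the retina pools and 344, 389 and 371 in the pools with RPE, 1.77-fold (95% interval 1.52 to 2.06, adjusted p = 4.7e-04), and only wdr77 rose, by 0.43 ± 0.107, a call lost without retina with RPE replicate 3 (0.0552). Of 22 exon junction and SR-related genes 5 fell and 2 rose, with thoc3 1.497-fold lower (adjusted p = 0.00122). Of 32 other RNA-binding genes 10 fell and 5 rose, and among the latter ybx1, a cold shock domain protein of mRNA, rose by 0.44 ± 0.106 (adjusted p = 0.0109), while its dimmer probe set gave 0.20 and was not called (0.189).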

How the data were processed

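The authors deposited an intensity on a linear scale for every probe set of each array. Per the labels' protocols 33 ng of RNA from a pool went through 2 rounds of amplification and biotin labelling. The submitters' processing notes name RMA, affy and R 2.2.0, with no order or options. Of 15617 probe sets, 115 controls were left out and 15502 were fitted after log2 transformation in limma 3.58.1 (R 4.3.3; lmFit and eBayes, 2-sided, group only). Gene names came from the platform annotation, which gave 10795 probe sets 1 gene, 135 several and 4572 none. The probe set with the highest mean log2 stood for a gene. All 136 members matched a current gene by identifier. Named genes were pspc1, nono and sfpq, the 10 largest called changes in each direction, up to 3 called per role group and direction, the brightest of each group, members with opposed probe sets and up to 3 called per list of other pathway genes. Members, groups and lists were chosen with earlier results of these data known. The fit was tested on simulated data. Alternatives were the replicate number as a block, other scalings, a filter on dim probe sets, other variance models, a pseudocount, a stricter threshold, other probe sets and leaving out each array. Figures were drawn with matplotlib 3.10.9.

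The number of arrays, 3 per group, limits the precision, and without detection calls dim probe sets have no floor. The 8 probe sets for the 3' ends of the bacterial poly-A controls dap, lys, phe and thr read 1.07-fold to 3.47-fold higher with RPE. The gapdh probe sets differed (3' minus 5', log2) by 3.12 ± 0.149 in retina and 2.99 ± 0.212 with RPE (SD, n = 3, exact permutation p = 0.5). For acta1, a muscle actin, that difference was 0.414 ± 0.18 in retina and 0.695 ± 0.0723 with RPE (SD, n = 3, exact permutation p = 0.2). Their part in the changes was not tested.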

Additional observations from a re-analysis of the deposited data

How the results depend on the processing

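With 3 arrays per group the count of calls was fragile, above all for rises. Leaving out 1 array gave 10 to 17 members higher and 26 to 37 lower. Those were 7.35% to 12.5% and 19.1% to 27.2% of members, beside 12.4% to 18.1% and 11.5% to 16.9% of all genes. Other pathway genes then numbered 11 to 19 higher and 18 to 38 lower. Quantile normalization gave 23 members lower. Of the other pathway genes, 19 were lower under cyclic loess, 19 under quantile normalization and 22 after centring on ribosomal protein genes. At an adjusted p under 0.01, 7 members were higher and 24 lower. Those were 5.15% and 17.6% of members, beside 9.35% and 9.45% of all genes. At that threshold 6 other pathway genes were higher and 15 lower. With probe sets marked S alone, 11 of 88 members were higher and 22 lower and 15 of 91 other genes lower. The members' shares were 12.5% higher and 25% lower, beside 23.3% and 12% of all genes. With probe sets marked A alone, 10 of 62 members were higher and 15 lower and 7 of 70 other genes higher. Here the members' shares were 16.1% higher and 24.2% lower, beside 16.9% and 20.2% of all genes. The counts with S or A probe sets alone come from fewer genes. The stricter threshold was applied to the same fit and can only remove calls. For the other settings the cause was not tested. The filter on dim probe sets, the other variance models and the pseudocount kept these counts within 1.5 times.

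The sign turned with the choice of probe set in some genes. The dimmest probe set gave -0.12 for ddx31, 0.36 for ddx61, 1.01 for hnrnpa0b, 0.29 for prpf8, 0.655 for lsm14aa, 0.69 for srsf6a, -0.28 for igf2bp3, 0.0557 for nova2 and 0.23 for serbp1b. Probe sets marked S alone gave 0.16 for fubp1, 0.0557 for nova2 and 0.23 for serbp1b, and those marked A alone 0.805 for hnrnpub and 0.0354 for lsm14aa. The cause was not tested.

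With the replicate number as a block, 22 members were higher and 36 lower, and 19 other pathway genes higher and 38 lower. The deviations of arrays with the same number correlated at 0.175, 0.0786 and 0.13, not all over 0.1, so the numbers were not taken as pairing the pools. Each array did correlate best with its own number, a hint from the data and not from the design. What the numbers stand for is also unclear, since the labels of replicates 2 and 3 with RPE carry codes that end in 3 and 4. By code, the retina array ending in 3 would go with replicate 2 with RPE, and that correlation was -0.0737.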

Other observations

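Genes of ribosome biogenesis outside the DEAD-box family, polr1a, polr1b and polr1c among them, were looked at beside the nucleolar helicases. No difference between the lists was tested. Of 81 such genes, listed after the values of the helicases were seen, 10 rose and 17 fell, with a median log2 change of 0.005, beside 19.4% higher and 17% lower of all genes. After cyclic loess 14 rose and 13 fell, and after quantile normalization 15 rose and 11 fell. Rises numbered 3 to 12 and falls 9 to 16 when single arrays were left out, the fewest of both without retina with RPE replicate 3. The gene utp23, a factor of the small ribosomal subunit, changed by 0.87 (adjusted p = 5.5e-04, limma) and bop1, a factor of the large subunit, by 0.47 (0.0101). The gene rrs1, whose yeast counterpart acts in the large subunit, changed by -0.67 (0.00116) and dkc1, the pseudouridine synthase of box H/ACA particles, by -0.64 (0.00199). These 4 genes were singled out after their values were seen.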
